A study of Homo sapiens with 12 samples.

Results

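Transcripts of 35 genes of the endoplasmic reticulum (ER) folding machinery and the unfolded protein response were measured in HT1080 cells treated with PMA or with ConA. The genes were chosen by name for their roles, but with earlier results of these data known. They were 15 chaperones and folding enzymes, 8 genes of ER-associated degradation, 6 genes of the translocon and ER export, and 6 sensors and regulators. All 35 were listed and tested in both experiments, out of 16101 genes listed in the PMA experiment and 15991 in the ConA experiment. HT1080 is an established human fibrosarcoma line, used here as unmodified wild-type cells. All groups were grown in biotin-depleted medium and moved on day 3 to the low-serum version of that medium, with 1% serum. The 4 groups held 3 polyA RNA libraries each: cells given 40 nM PMA for 24 h and the PMA controls (libraries 1 to 3), and cells given 40 µg/mL ConA for 24 h and separate ConA controls (libraries 4 to 6). PMA is a phorbol ester that activates protein kinase C, and ConA is a jack bean lectin that binds mannose- and glucose-containing glycans at the cell surface. One cell line was used throughout, and the labels do not say whether the libraries of a group came from separate cultures, so the p-values measure the spread between these libraries only.

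Proteins that enter the secretory pathway pass through the Sec61 channel into the ER, where chaperones and disulfide isomerases fold them and calnexin and calreticulin hold those that carry N-glycans. Proteins that fail to fold are drawn back out and degraded by the proteasome. When unfolded protein builds up, the membrane sensors IRE1 (gene ERN1), PERK (gene EIF2AK3) and ATF6 start the unfolded protein response: IRE1 splices XBP1 mRNA, ATF6 is cut to release a transcription factor, and PERK phosphorylates eIF2α, which slows translation and favours translation of ATF4. PPP1R15A (GADD34) guides a phosphatase back to eIF2α and thereby ends the PERK signal.

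Many of these genes are known to share promoter elements through which ATF6 and XBP1 act. Promoter windows from RefSeq (assembly GRCh38.p14, 250 bases before to 50 bases after each start) were found for 32 of the 35 genes, and PDIA3, DERL1 and SEC24D had no entry. Exact matches on both strands were searched for ERSE (CCAAT, any 9 bases, CCACG), for ERSE-II (ATTGG, any base, CCACG) and for the UPRE core (TGACGTG). ERSE was found in 7 of the 32 genes (21.9%) and in 25 of all 27305 genes with an entry (0.0916%). ERSE-II was found in 3 of the 32 (9.38%) and in 19 of the 27305 (0.0696%). The UPRE core was found in 3 of the 32 (9.38%; HYOU1, SEC61A1 and SSR3) and in 654 of the 27305 (2.40%). Wider lists of ER and heat shock genes, counted below, had 115 genes with an entry. Of these, ERSE was found in 1 (0.87%), ERSE-II in 0 and the UPRE core in 15 (13%). The matches of PDIA6, XBP1, SEC61A1 and SSR3 lay in a single entry of several for the gene, and CANX had no match in some of its 4 entries. One site of each gene with ERSE or ERSE-II is shown, because ATF6 and XBP1 are known to act through these elements. Each is read 5′ to 3′ on the strand named, with the fixed letters of the motif in capitals.
HSPA5, ERSE, chr9:125241379-125241421, minus strand: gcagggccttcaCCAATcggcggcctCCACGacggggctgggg
HSP90B1, ERSE, chr12:103930309-103930351, minus strand: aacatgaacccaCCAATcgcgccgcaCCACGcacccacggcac
CALR, ERSE, chr19:12938372-12938414, minus strand: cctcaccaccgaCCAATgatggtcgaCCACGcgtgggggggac
CANX, ERSE, chr5:179698766-179698808, plus strand: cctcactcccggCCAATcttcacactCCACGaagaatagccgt
PDIA6, ERSE, chr2:10812841-10812883, minus strand: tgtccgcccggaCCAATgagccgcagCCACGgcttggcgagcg
CRELD2, ERSE, chr22:49918542-49918584, minus strand: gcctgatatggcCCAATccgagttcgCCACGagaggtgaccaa
XBP1, ERSE, chr22:28800591-28800633, minus strand: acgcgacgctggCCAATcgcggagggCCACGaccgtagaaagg
HERPUD1, ERSE-II, chr16:56932013-56932047, plus strand: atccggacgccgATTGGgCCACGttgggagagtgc
SDF2L1, ERSE-II, chr22:21642102-21642136, minus strand: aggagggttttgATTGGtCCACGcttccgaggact
HYOU1, ERSE-II, chr11:119057368-119057402, plus strand: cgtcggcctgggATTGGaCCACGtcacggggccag
HSP90B1 and HYOU1 each hold a second site of the same motif in the window, and the UPRE core of HYOU1 overlaps the site shown. A match is a description of letters, and no match says only that these letters are not in this window. The files give no coordinates of their own.

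The values are normalized counts, scaled by the authors within each experiment, so a gene's level is compared only with the controls of the same experiment and not between genes, since gene length was not corrected for. A gene is said to have risen or fallen at an adjusted p of at most 0.05 (limma on log2(value + 1), Benjamini-Hochberg over all genes tested), which 32.8% of all 15153 genes did upward and 30.5% downward with PMA, and 32.8% upward and 32.5% downward of 15139 with ConA. A stricter call asked in addition for a log2 change of at least 1 in size and an adjusted p of at most 0.0001. In bulk libraries a change in the share of cells that express a gene and a change in RNA per cell cannot be told apart.

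With PMA, 25 of the 35 genes rose, 4 fell and 6 did neither, and the median log2 change was 0.18 against 0.0029 over all genes tested. With ConA, 13 rose, 10 fell and 12 did neither, with a median of 0.027 against -0.0022. Most of the rises with PMA were small and depended on the scaling. After quantile normalization 9 rose and 10 fell, where 4403 of all genes rose and 4846 fell in place of 4970 and 4616. When each value was divided by its library's total over all genes (library-total scaling), 9 rose and 9 fell. With that scaling the median over all genes was shifted to -0.10, and 3478 of all genes rose and 6316 fell. With ConA the counts were 11 and 14 after median centring and 16 and 8 with library-total scaling. Of all genes 4330 rose and 5625 fell with ConA after median centring, and 5728 and 4225 with library-total scaling, in place of 4973 and 4918. Without PMA control 1 the count of genes that fell with PMA was 2. The sum of normalized counts over all genes was 36791432 to 37139546 in the PMA controls and 40081123 to 40289797 with PMA. Under all 4 scalings tried (these, the authors' own and median centring), 9 genes rose with PMA (DNAJC3, SDF2L1, HERPUD1, SEC61B, SEC24D, SPCS3, SSR3, ERN1 and PPP1R15A) and 4 fell (CALR, CRELD2, SEL1L and EDEM2). Under the same 4 scalings 11 rose with ConA (HSPA5, HSP90B1, CALR, CANX, PDIA3, PDIA4, PDIA6, DNAJB11, HYOU1, CRELD2 and WFS1) and 8 fell (HERPUD1, SEL1L, EDEM1, EDEM3, SEC61A1, SEC61B, XBP1 and EIF2AK3). The other 16 rises with PMA, the rises of SDF2L1 and SSR3 with ConA and the decreases of SPCS3 and PPP1R15A with ConA did not pass under at least 1 of the 4. The share of all genes that passed under all 4 was not counted. Whether these counts exceed that share is therefore not known.

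**Figure D1:**
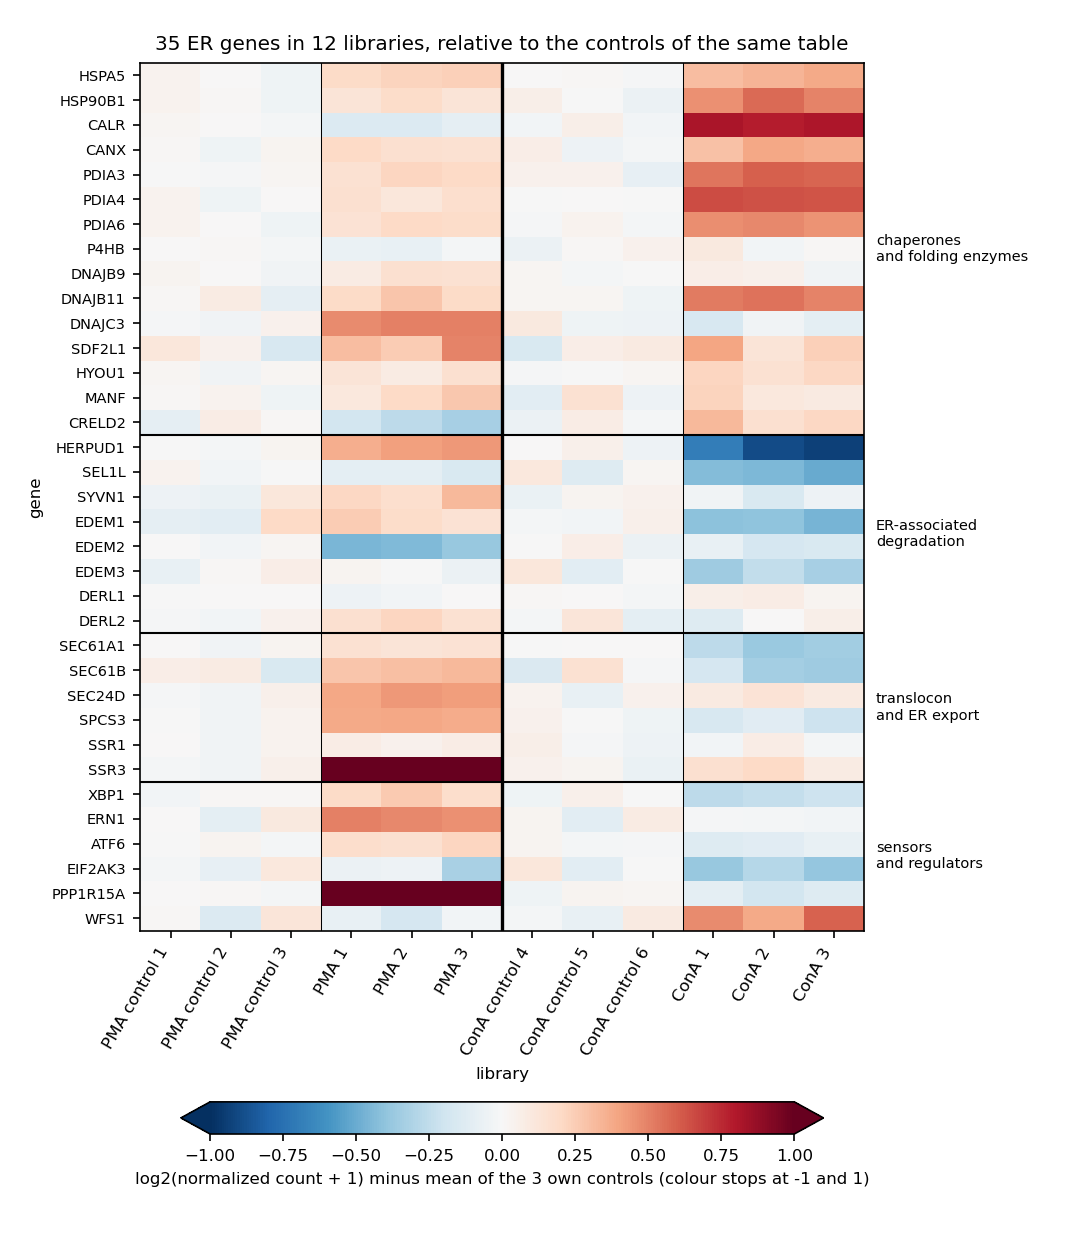
Each row is one of the 35 genes, ordered by role, and each column one of the 12 libraries; colour gives log2(normalized count + 1) minus the mean of the 3 controls of the same experiment and stops at -1 and 1. ConA libraries are red in most chaperone rows and blue in most degradation rows, while PMA libraries are darkest at PPP1R15A and SSR3.

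The strict call was met by 2 genes with PMA, PPP1R15A and SSR3, both higher, where 4.03% of all genes were called higher and 4.61% lower. With ConA the strict call was met by 0 of the 35 in limma, where 5.83% of all genes were called higher and 2.88% lower. At an unadjusted p under 0.05, with no minimum change, 24 of the 35 passed with ConA. The share of all genes at that unadjusted threshold was not counted, here or for the roles below. That share cannot be below the share at an adjusted p of at most 0.05, where 32.8% of all genes rose and 32.5% fell with ConA. The unadjusted counts are therefore not read as more than among all genes. The difference between the treatments, taken as the log2 change under PMA less that under ConA, was tested on 15030 genes in all 12 libraries. Each treatment had its own controls and its own scaling. A difference between the treatments therefore cannot be told apart from a difference between the experiments. It was higher for 15 of the 35 genes and lower for 10 at an adjusted p of at most 0.05, where 30.4% of all genes were higher and 30.7% lower. The split was 15 and 14 after quantile normalization, where 4783 of all genes were higher and 4127 lower in place of 4573 and 4610. With library-total scaling it was 10 and 14, where 3057 of all genes were higher and 6282 lower. Under all 4 scalings 10 of the 35 genes were higher and 9 lower, and the share of all genes was not counted there. The difference met the strict call for 3 genes, PPP1R15A, HERPUD1 and SSR3, all higher, where 3.67% of all genes were called higher and 6.89% lower. Under quantile normalization and library-total scaling SSR3 no longer met it (0.82 and 0.91) and CALR met it as lower (-1.25 and -1.11).

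Most of the 15 chosen chaperones and folding enzymes rose with ConA, while of 38 further ones, given below, 14 rose and 14 fell. With ConA 11 of the 15 rose, none fell and 4 did neither (11 at an unadjusted p under 0.05), with a median log2 change of 0.34. The count of risen genes lay between 10 and 12 under the 4 scalings, and median centring alone had 1 of the 15 lower. Together the 15 genes held 0.839% ± 0.011 (SD, n = 3) of all normalized counts in the ConA controls and 1.20% ± 0.013 (SD, n = 3) with ConA. The largest part of that rise was CALR. The mean sum of the 15 genes was 359890 in the ConA controls and 492021 with ConA, of which CALR held 73919.3 and 129143. With PMA 12 of the 15 rose and 2 fell with a median of 0.17, but 2 rose and 4 fell after quantile normalization, and their share of all normalized counts was 0.830% ± 0.0087 in the controls and 0.821% ± 0.0058 with PMA (SD, n = 3).

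CALR encodes calreticulin, the soluble lectin chaperone that binds monoglucosylated N-glycans. Its normalized count was 72407, 76872 and 72478 in the ConA controls and 130228, 127659 and 129542 with ConA. The groups did not overlap, and the log2 change was 0.81 (SE 0.06, n = 3 against 3, adjusted p = 2.98e-08 in limma). In the PMA experiment the counts were 46064, 45429 and 44740 in the controls and 41404, 41257 and 42707 with PMA, a change of -0.12 (SE 0.04, adjusted p = 0.0171). All PMA libraries lay below all of their controls, although the change did not pass the test without PMA control 1, PMA 1 or PMA 2 (adjusted p = 0.066, 0.0693 and 0.0694). The difference between the treatments was -0.93 (95% interval -1.06 to -0.79, adjusted p = 1.23e-09).

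PDIA4 encodes ERp72, a disulfide isomerase with several thioredoxin-like domains. Its count was 13374, 13455 and 13404 in the ConA controls and 21066, 20893 and 20700 with ConA, a log2 change of 0.64 (SE 0.05, adjusted p = 4.07e-08). With PMA the change was 0.15 (SE 0.04, adjusted p = 0.00504), and 0.0014 after quantile normalization. The disulfide isomerases PDIA3 (ERp57, the partner of calreticulin and calnexin) and PDIA6 changed by 0.57 and 0.46 with ConA. P4HB, the founding disulfide isomerase and a subunit of collagen prolyl hydroxylase, changed by 0.03 with ConA (95% interval -0.10 to 0.15) and by -0.06 with PMA (-0.14 to 0.03), neither past the test.

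HSPA5 (BiP), the ER member of the Hsp70 family, was at 55694 ± 579 (SD, n = 3) in the ConA controls and 70613 ± 1606 with ConA, a log2 change of 0.34 (SE 0.05, adjusted p = 6.84e-05). Its change with PMA was 0.22 (SE 0.04, adjusted p = 0.000847), and the difference of -0.12 (95% interval -0.26 to 0.01) did not pass the test with the authors' scaling. It was -0.52 after quantile normalization (adjusted p = 1.46e-05) and -0.31 with library-total scaling (adjusted p = 0.000354), and passed under both. HSP90B1 (GRP94), the ER member of the Hsp90 family, changed by 0.51 with ConA and 0.15 with PMA. CANX, the membrane-bound counterpart of calreticulin, changed by 0.35 with ConA and 0.17 with PMA. DNAJB11, a BiP co-chaperone, changed by 0.52 and 0.22. HYOU1, an exchange factor for BiP, rose by 0.19 with ConA and by 0.12 with PMA, though quantile normalization turned the change with PMA to -0.12 and the call was lost without PMA control 2, PMA 1 or PMA 3 (adjusted p = 0.0516, 0.0562 and 0.0698). With that scaling PDIA3, PDIA6 and DNAJB9 also turned, to -0.043, -0.050 and -0.0042.

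DNAJC3 (P58IPK), a co-chaperone of BiP that also restrains PERK, rose with PMA and not with ConA. Its count was 2806, 2755 and 2908 in the PMA controls and 3906, 4000 and 3997 with PMA, a log2 change of 0.49 (SE 0.04, adjusted p = 6.76e-07). In the ConA experiment the counts were 3086, 2789 and 2778 in the controls and 2580, 2808 and 2685 with ConA, with overlapping groups and a change of -0.10 (95% interval -0.23 to 0.03). The difference of 0.59 (adjusted p = 1.53e-06) made DNAJC3 the one chaperone with a higher difference, beside 8 with a lower difference: HSP90B1, CALR, CANX, PDIA3, PDIA4, PDIA6, DNAJB11 and CRELD2. Under quantile normalization and library-total scaling HSPA5, P4HB and HYOU1 were lower too, which made 11. The difference of CANX (-0.17, adjusted p = 0.0289) did not pass without any single one of 8 libraries (PMA controls 1 and 3, PMA 2 and 3, ConA 2 and 3, ConA controls 5 and 6, adjusted p = 0.0532 to 0.0658).

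SDF2L1, a partner of DNAJB11 in the BiP cycle, was at 1125, 1072 and 933 in the PMA controls and at 1289, 1241 and 1466 with PMA. The groups did not overlap (log2 change 0.35, SE 0.08, adjusted p = 0.00232), and with ConA the change was 0.25 (SE 0.08, adjusted p = 0.0148), a call lost without ConA 1 or ConA control 4 (adjusted p = 0.0646 and 0.0693). CRELD2, a secreted ER stress protein with isomerase activity, moved in opposite directions. It fell with PMA by 0.26 on the log2 scale (adjusted p = 0.00244) and rose with ConA by 0.23 (adjusted p = 0.00439). DNAJB9, a BiP co-chaperone that keeps IRE1 inactive, changed by 0.13 with PMA and 0.03 with ConA, and MANF, a secreted BiP cofactor, by 0.19 and 0.14, and neither gene passed the test with ConA. The change of DNAJB9 with PMA did not pass without PMA 2 or PMA 3 (adjusted p = 0.0657 and 0.0561), and that of MANF with ConA passed without ConA control 5 (0.22, adjusted p = 0.00617).

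**Figure D2:**
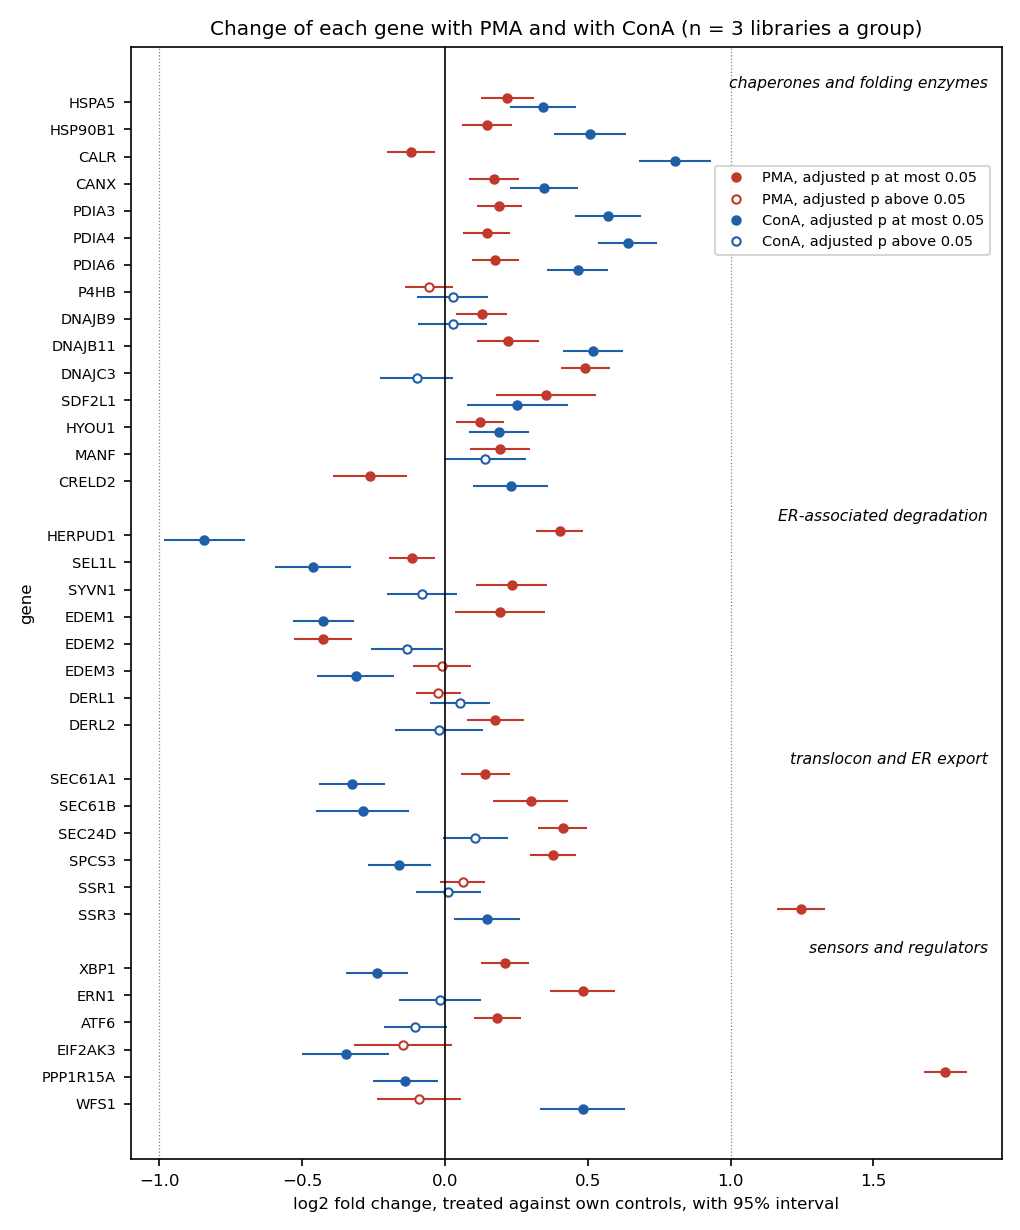
The horizontal axis gives the log2 fold change against the controls of the same experiment, with its 95% interval, for each of the 35 genes; red is PMA, blue is ConA, and filled points passed an adjusted p of 0.05. Among the chaperones most blue points lie to the right of the red ones, and in the other roles most blue points lie to the left.

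Among the 8 genes of ER-associated degradation 4 fell with ConA and none rose (5 at an unadjusted p under 0.05), with a median log2 change of -0.22. Between 4 and 6 of them fell with ConA under the 4 scalings, and 1 rose with library-total scaling. With PMA 4 rose and 2 fell with a median of 0.08, and the median turned to -0.046 after quantile normalization and to -0.037 with library-total scaling. The difference between the treatments was higher for 5 of the 8 and lower for 1, EDEM2 (2 and 2 with library-total scaling).

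HERPUD1 (Herp), a membrane protein that gathers the Hrd1 degradation complex, fell most with ConA among the 35. Its count was 4340, 4491 and 4183 in the ConA controls and 2681, 2327 and 2270 with ConA, a log2 change of -0.84 (SE 0.07, adjusted p = 6.71e-08). In the PMA experiment it was 4819, 4768 and 4916 in the controls and 6212, 6430 and 6518 with PMA, a change of 0.40 (SE 0.04, adjusted p = 2.49e-06). The libraries did not overlap in either experiment, and the difference was 1.24 (95% interval 1.08 to 1.41, adjusted p = 3.90e-10). Its promoter holds the ERSE-II site printed above.

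SEL1L, the adaptor that holds the ubiquitin ligase Hrd1 in its complex, fell with both treatments. The ConA controls were at 6777, 5747 and 6392 and the ConA libraries at 4655, 4602 and 4445, without overlap (log2 change -0.46, SE 0.06, adjusted p = 1.37e-05). With PMA the change was -0.11 (SE 0.04, adjusted p = 0.0177), which did not pass without PMA control 1 or PMA 3 (adjusted p = 0.0771 and 0.0778). SYVN1, which encodes Hrd1 itself, changed by 0.23 with PMA (adjusted p = 0.00367) and by -0.08 with ConA (95% interval -0.20 to 0.04).

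The EDEM proteins trim mannose from misfolded glycoproteins and mark them for degradation, and their 3 genes behaved differently. EDEM1 fell with ConA by 0.43 on the log2 scale (SE 0.05, adjusted p = 4.19e-06) and had a change of 0.19 with PMA (adjusted p = 0.034), where PMA control 3 lay above 2 of the PMA libraries and the call was lost without PMA control 1, PMA control 2, PMA 1 or PMA 2 (adjusted p = 0.139, 0.127, 0.113 and 0.0762). EDEM2 was at 1558, 1523 and 1573 in the PMA controls and at 1130, 1141 and 1189 with PMA, a log2 change of -0.43 (SE 0.05, adjusted p = 8.76e-06), beside -0.13 with ConA (adjusted p = 0.0616, and 0.0427 without ConA 1). EDEM3 fell with ConA (-0.31, adjusted p = 0.000555) and changed by -0.01 with PMA (95% interval -0.11 to 0.09). The Derlins are rhomboid-like membrane proteins of the retrotranslocation channel. DERL1 changed by -0.02 with PMA and 0.05 with ConA, neither past the test, and DERL2 by 0.18 with PMA (adjusted p = 0.00535) and -0.02 with ConA.

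Among the 6 genes of the translocon and ER export 5 rose with PMA and none fell (5 at an unadjusted p under 0.05), with a median log2 change of 0.34. After quantile normalization 4 rose and 1 fell, and 4 rose with library-total scaling. With ConA 1 rose and 3 fell, with a median of -0.074 (2 and 2 with library-total scaling). Together the 6 genes held 0.225% ± 0.0047 of all normalized counts in the PMA controls and 0.278% ± 0.00032 with PMA (SD, n = 3). Most of that rise was SSR3 alone. The mean sum of the 6 genes was 83049.5 in the PMA controls and 111620 with PMA, of which SSR3 held 14497.4 and 34388.

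SSR3 encodes the gamma subunit of the translocon-associated protein complex, which sits beside the Sec61 channel. Its count was 14286, 14164 and 15042 in the PMA controls and 33890, 34655 and 34619 with PMA, a 2.37-fold level (log2 change 1.25, SE 0.04, adjusted p = 2.51e-10). In the ConA experiment it was 13276, 13173 and 12301 in the controls and 14405, 14848 and 13665 with ConA, a log2 change of 0.15 (SE 0.05, adjusted p = 0.0271). That call was lost without ConA 1, ConA 2 or ConA control 6 (adjusted p = 0.0506, 0.112 and 0.128). The difference was 1.10 (95% interval 0.96 to 1.24, adjusted p = 1.72e-10). SSR1, the alpha subunit of the same complex, changed by 0.06 with PMA (95% interval -0.02 to 0.14; -0.090 after quantile normalization) and by 0.01 with ConA.

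SEC24D, a cargo-binding subunit of the COPII coat that carries proteins out of the ER, was at 3515, 3461 and 3676 in the PMA controls and at 4631, 4794 and 4746 with PMA. The groups did not overlap (log2 change 0.41, SE 0.04, adjusted p = 3.36e-06), and with ConA the change was 0.11 (95% interval -0.01 to 0.22). SPCS3, a subunit of the signal peptidase, rose with PMA by 0.38 (adjusted p = 3.37e-06) and fell with ConA by 0.16 on the log2 scale (adjusted p = 0.0133), a call lost without ConA 3 or ConA control 4 (adjusted p = 0.0741 and 0.0509).

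SEC61A1 and SEC61B, the alpha and beta subunits of the Sec61 channel, both fell with ConA. SEC61A1 was at 42710, 42987 and 43098 in the ConA controls and at 35889, 33240 and 33764 with ConA (log2 change -0.32, SE 0.05, adjusted p = 9.89e-05). SEC61B was at 2617, 3229 and 2881 in the ConA controls and at 2581, 2285 and 2265 with ConA (log2 change -0.29, SE 0.08, adjusted p = 0.00428), with the lowest control just above the highest ConA library. With PMA they rose by 0.14 (adjusted p = 0.00774) and 0.30 (adjusted p = 0.00102), and the differences were 0.47 (adjusted p = 4.92e-06) and 0.59 (adjusted p = 0.000126).

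**Figure D3:**
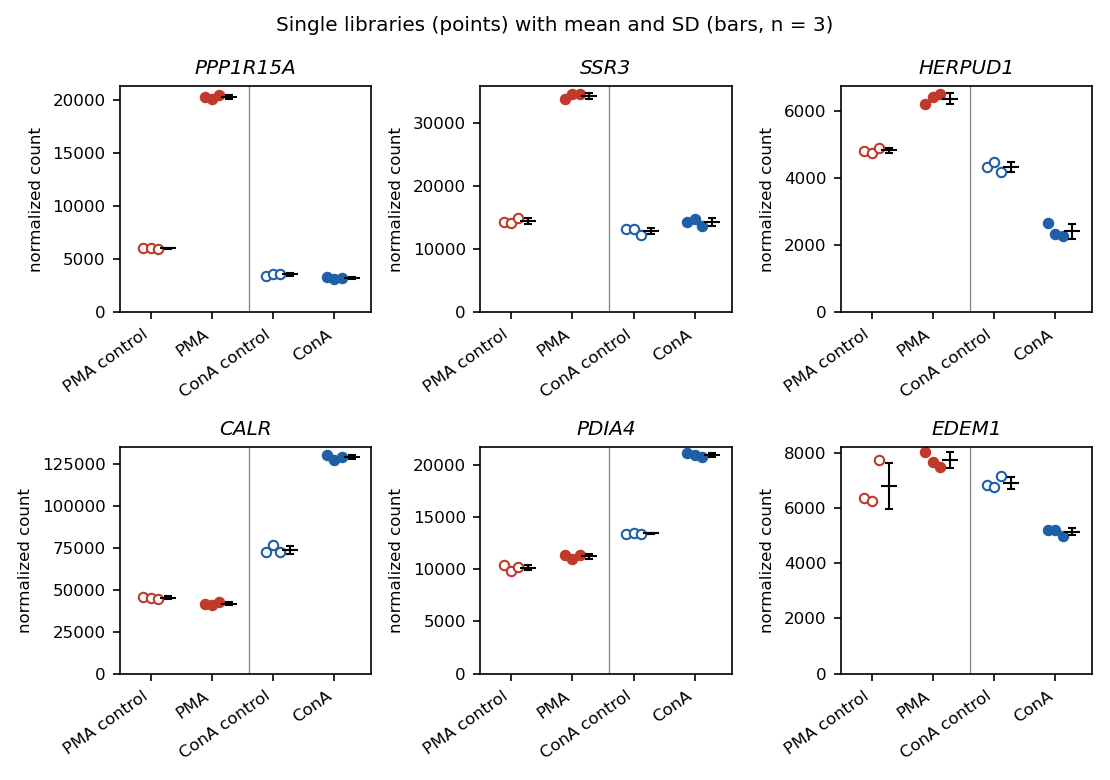
Normalized counts of 6 genes in single libraries (open circles controls, filled circles treated, red PMA experiment, blue ConA experiment), with the mean and SD of 3 libraries in black; levels on both sides of the grey line were scaled separately. PPP1R15A and SSR3 stand apart with PMA, CALR and PDIA4 with ConA, and HERPUD1 lies above its controls with PMA and below them with ConA.

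Among the 6 sensors and regulators 4 rose with PMA and none fell (4 at an unadjusted p under 0.05), with a median log2 change of 0.20. After quantile normalization 2 rose and 1 fell, and with library-total scaling 2 rose and 2 fell. With ConA 1 rose and 3 fell, with a median of -0.12. Together the 6 genes held 0.0511% ± 0.00072 of all normalized counts in the PMA controls and 0.0869% ± 0.00030 with PMA (SD, n = 3). Most of that rise was PPP1R15A alone. The mean sum of the 6 genes was 18871.7 in the PMA controls and 34880.5 with PMA, of which PPP1R15A held 6031.5 and 20315.5.

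PPP1R15A had the greatest change of the 35 genes. Its count was 6049, 6096 and 5950 in the PMA controls and 20294, 20164 and 20489 with PMA, a 3.37-fold level (log2 change 1.75, SE 0.03, adjusted p = 7.80e-12). In the ConA experiment it was 3451, 3633 and 3614 in the controls and 3334, 3134 and 3253 with ConA, a log2 change of -0.14 (SE 0.05, adjusted p = 0.032). That small decrease did not pass without ConA 2, ConA 3, ConA control 5 or ConA control 6 (adjusted p = 0.118, 0.0788, 0.0764 and 0.094). The difference was 1.89 (95% interval 1.77 to 2.01, adjusted p = 1.45e-14).

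ERN1, which encodes IRE1, was at 1732, 1609 and 1845 in the PMA controls and at 2444, 2412 and 2376 with PMA. The groups did not overlap (log2 change 0.48, SE 0.05, adjusted p = 1.02e-05), and with ConA the change was -0.02 (95% interval -0.16 to 0.13). XBP1, the mRNA that IRE1 splices, rose with PMA by 0.21 (adjusted p = 0.000574) and fell with ConA by 0.24 on the log2 scale (adjusted p = 0.000819). Gene-level counts do not separate spliced from unspliced XBP1. ATF6 rose with PMA by 0.18 (adjusted p = 0.00135) and changed by -0.10 with ConA (95% interval -0.21 to 0.01).

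EIF2AK3, which encodes PERK, was at 1285, 1103 and 1182 in the ConA controls and at 915, 977 and 910 with ConA, without overlap (log2 change -0.35, SE 0.07, adjusted p = 0.000624). With PMA the groups overlapped and the change was -0.15 (95% interval -0.32 to 0.02). WFS1, an ER membrane protein that restrains ATF6 signalling, was at 1316, 1267 and 1422 in the ConA controls and at 1849, 1737 and 2013 with ConA (log2 change 0.48, SE 0.07, adjusted p = 2.83e-05). It was the one gene of this role that rose with ConA, and with PMA it changed by -0.09 (95% interval -0.24 to 0.06), or by -0.16 (adjusted p = 0.0437) without PMA control 2.

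With the authors' scaling, 7 genes rose with PMA and fell with ConA (HERPUD1, EDEM1, SEC61A1, SEC61B, SPCS3, XBP1 and PPP1R15A), and 2 fell with PMA and rose with ConA (CALR and CRELD2). A further 10 rose with both (HSPA5, HSP90B1, CANX, PDIA3, PDIA4, PDIA6, DNAJB11, SDF2L1, HYOU1 and SSR3), SEL1L fell with both, and P4HB, DERL1 and SSR1 passed the test with neither. Of all genes tested, 32.8% rose and 30.5% fell with PMA, and 32.8% rose and 32.5% fell with ConA. How many of all genes had each combination of directions was not counted, here or under all 4 scalings below. These combined counts are therefore not read as more than among all genes. For CALR, HYOU1, SEL1L and EDEM1 with PMA, and for SDF2L1, SPCS3, SSR3 and PPP1R15A with ConA, leaving out single libraries ended the call, as given above. Under all 4 scalings HERPUD1 and SEC61B rose with PMA and fell with ConA, CALR and CRELD2 fell with PMA and rose with ConA, SEL1L fell with both, and none of the 10 rose with both. EDEM1, SEC61A1 and XBP1 lost the rise with PMA (0.046, 0.046 and 0.050 after quantile normalization), and SPCS3 and PPP1R15A lost the decrease with ConA (-0.093 and -0.071 with library-total scaling). Of the 10, SDF2L1 and SSR3 lost the rise with ConA under at least 1 scaling and the other 8 the rise with PMA, where HYOU1 turned to -0.12 after quantile normalization (adjusted p = 0.0122). The genes with an ERSE in the window did not all move alike: with ConA the 6 chaperones among them rose by between 0.23 and 0.81, and XBP1 fell. Of those with ERSE-II, SDF2L1 and HYOU1 rose with ConA and HERPUD1 fell. PDIA4 and DNAJB11 rose with ConA and hold none of the motifs in the window.

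**Figure D4:**
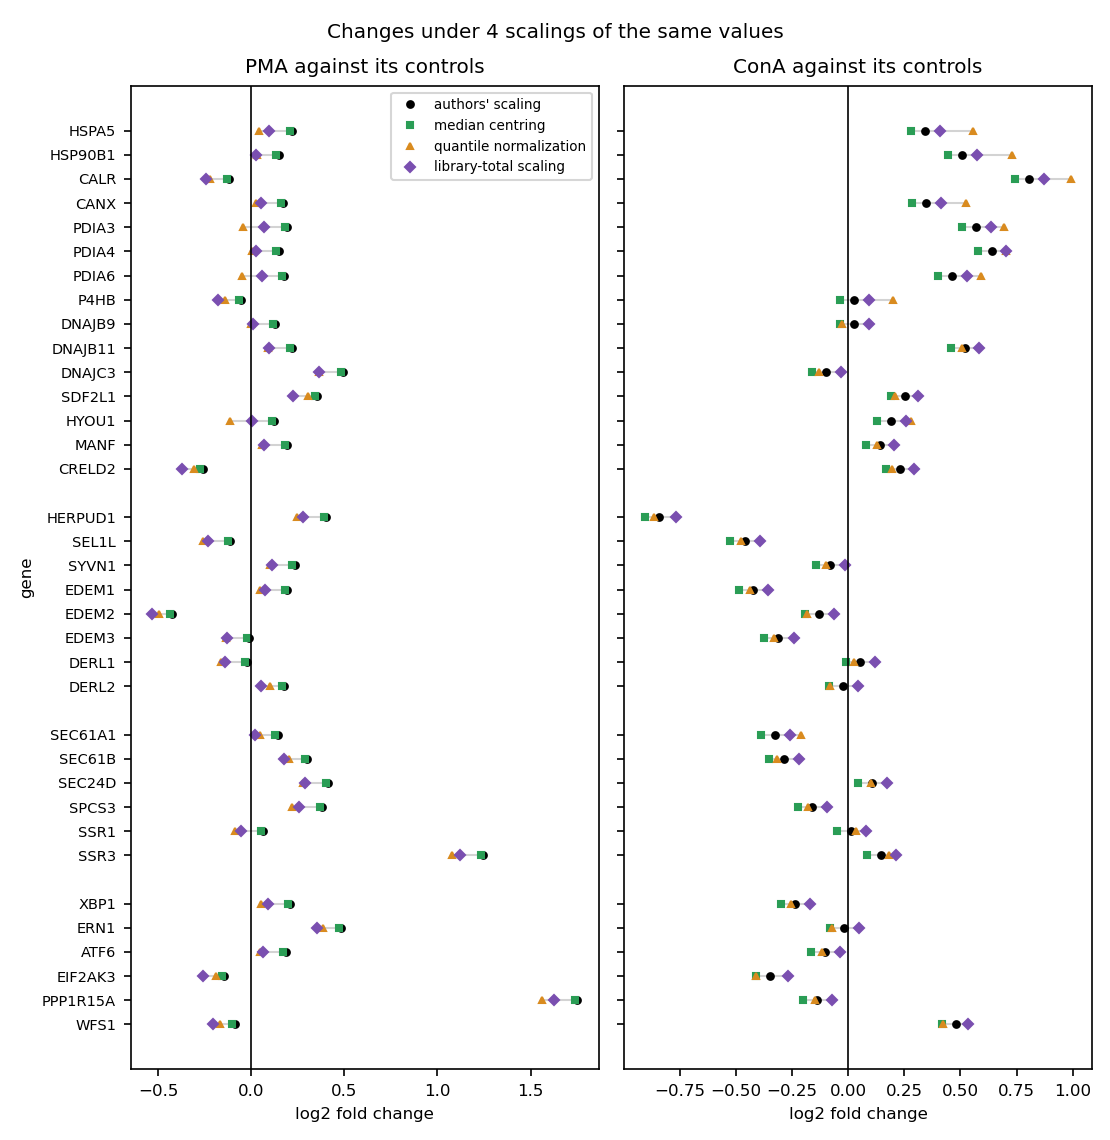
The log2 fold change of each gene with PMA (left) and with ConA (right) under the authors' scaling, median centring, quantile normalization and library-total scaling, joined by a grey line. With PMA many small rises move to about 0 under the last pair of scalings, while SSR3 and PPP1R15A stay above 1 and CALR, CRELD2, SEL1L and EDEM2 stay below 0.

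Other genes of the same pathways were counted from wider lists. Over all genes tested 32.8% rose and 30.5% fell with PMA, and 32.8% rose and 32.5% fell with ConA. Of 38 further ER chaperones and folding enzymes 9 rose and 12 fell with PMA, and 14 rose and 14 fell with ConA. Of 25 further ER-associated degradation genes 12 rose and 4 fell with PMA and 9 rose and 7 fell with ConA. Of 31 further translocon and COPII genes 15 rose and 3 fell with PMA and 7 rose and 11 fell with ConA. With PMA these splits too depended on the scaling, with 4 and 19, 8 and 9, and 7 and 10 higher and lower after quantile normalization. There 4403 of all genes rose and 4846 fell. With ConA the chaperone list (36.8% higher, 36.8% lower) and the degradation list (36% and 28%) lay near the shares of all genes. The degradation list was at 5 and 10 after median centring and 11 and 5 with library-total scaling, and the translocon list at 5 and 13 and 9 and 10. Of all genes 4330 rose and 5625 fell with ConA after median centring, and 5728 and 4225 with library-total scaling.

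The named genes of these lists kept their calls under all 4 scalings. RCN3, a calcium-binding protein of the secretory pathway, rose with both treatments (1.05 with PMA, 0.82 with ConA). FKBP7, an ER prolyl isomerase, fell with PMA by 1.07 on the log2 scale (adjusted p = 6.20e-07), and so did the low-count gene CRELD1 (-0.86, adjusted p = 0.00435), whose change was -0.55 after quantile normalization and -0.44 with library-total scaling. RCN3 and FKBP7 met the strict call with PMA under the authors' scaling and not after quantile normalization. With ConA the thioredoxin-like ERP44 rose by 0.90 and the prolyl isomerase FKBP14 fell by 0.85. Among degradation genes TMEM129, a ubiquitin ligase, fell with PMA (-0.66, beside a change of -0.31 with ConA). The selenoprotein gene SELENOK rose with both (0.61 and 0.55), and AUP1, which recruits a ubiquitin-conjugating enzyme, rose with PMA (0.56). With ConA RNF5, another ubiquitin ligase, fell (-0.68) and FOXRED2 rose (0.60).

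KDELR3, a receptor that returns escaped ER proteins from the Golgi, fell with both treatments (-1.15 with PMA, adjusted p = 3.64e-09, and -0.84 with ConA, adjusted p = 6.18e-08). The COPII coat gene SEC24A and the translocon protein gene TRAM2 rose with PMA, by 0.57 and 0.48. SEC24A also changed by 0.41 with ConA, and its difference between the treatments did not pass the test (adjusted p = 0.173). With ConA SAR1A, the GTPase that starts COPII coat assembly, rose by 0.87, and the coat subunit gene SEC13 fell by 0.49.

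The further sensors, regulators and PERK-arm genes held the strongest decreases with ConA. Of 19 tested, 6 rose and 9 fell with ConA, and 9 rose and 3 fell with PMA (6 and 6 after quantile normalization). These were 31.6% and 47.4% with ConA, where 32.8% of all genes rose and 32.5% fell. With PMA they were 47.4% and 15.8%, beside 32.8% and 30.5% of all genes. The strict call with ConA was met by 5: ATF3 was higher, and TRIB3, CHAC1, ASNS and BHLHE41 were lower. Of all genes 5.83% were called higher and 2.88% lower. CHAC1, a glutathione-degrading enzyme and ATF4 target, was at 2341 ± 108 (SD, n = 3) in the ConA controls and 677 ± 122 with ConA (log2 change -1.80, SE 0.10, adjusted p = 1.64e-09). ASNS, the asparagine synthetase, changed by -1.25 (adjusted p = 5.51e-09), the pseudokinase gene TRIB3 by -1.19 (adjusted p = 8.55e-09) and the transcription factor gene BHLHE41 by -1.43 (adjusted p = 3.58e-09). ATF4 itself was at 37669 ± 947 and 21560 ± 1519 (SD, n = 3; log2 change -0.81, adjusted p = 3.43e-08), and ATF3 changed by 1.07 (adjusted p = 3.09e-09).

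With PMA part of the same list looked different. DDIT3 (CHOP), the transcription factor of prolonged PERK signalling, rose by 0.73 (adjusted p = 7.68e-07), and TRAF2, an adaptor of IRE1, by 0.79 (adjusted p = 2.17e-07). TRAF2 also changed by 0.91 with ConA, and its difference between the treatments did not pass the test (-0.11, adjusted p = 0.332). BHLHE41 fell with PMA by 0.53 on the log2 scale, beside its larger decrease with ConA. ATF4 changed by 0.06 with PMA and CHAC1 by -0.10, neither past the test. TRIB3, ATF3, ATF4 and, below, HSP90AA1 were chosen after their values were seen.

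The heat shock genes of the cytosol and mitochondria form a folding machinery outside the ER. Of 15 tested, 11 rose and 2 fell with PMA (10 or 11 rose under the 4 scalings), and 4 rose and 7 fell with ConA (6 and 4 after quantile normalization). These were 73.3% and 13.3% with PMA, where 32.8% of all genes rose and 30.5% fell. With ConA they were 26.7% and 46.7%, beside 32.8% and 32.5% of all genes. The strict call with PMA was met by 4.03% of all genes upward and 4.61% downward. With PMA 4 met the strict call: HSPA1A (log2 change 2.23, adjusted p = 4.01e-12), HSPA1B (1.54, adjusted p = 1.03e-10), HSPH1 (1.24, adjusted p = 1.63e-10) and HSP90AA1 (1.05, adjusted p = 1.66e-09), the last of which did not meet it after quantile normalization or with library-total scaling. With ConA HSPA1A and HSPA1B rose by 0.91 and 0.82 and the co-chaperone gene DNAJA1 by 0.85. HSPA1A and HSPA1B are near-identical copies, so the division of reads between them is uncertain.

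**Figure D5:**
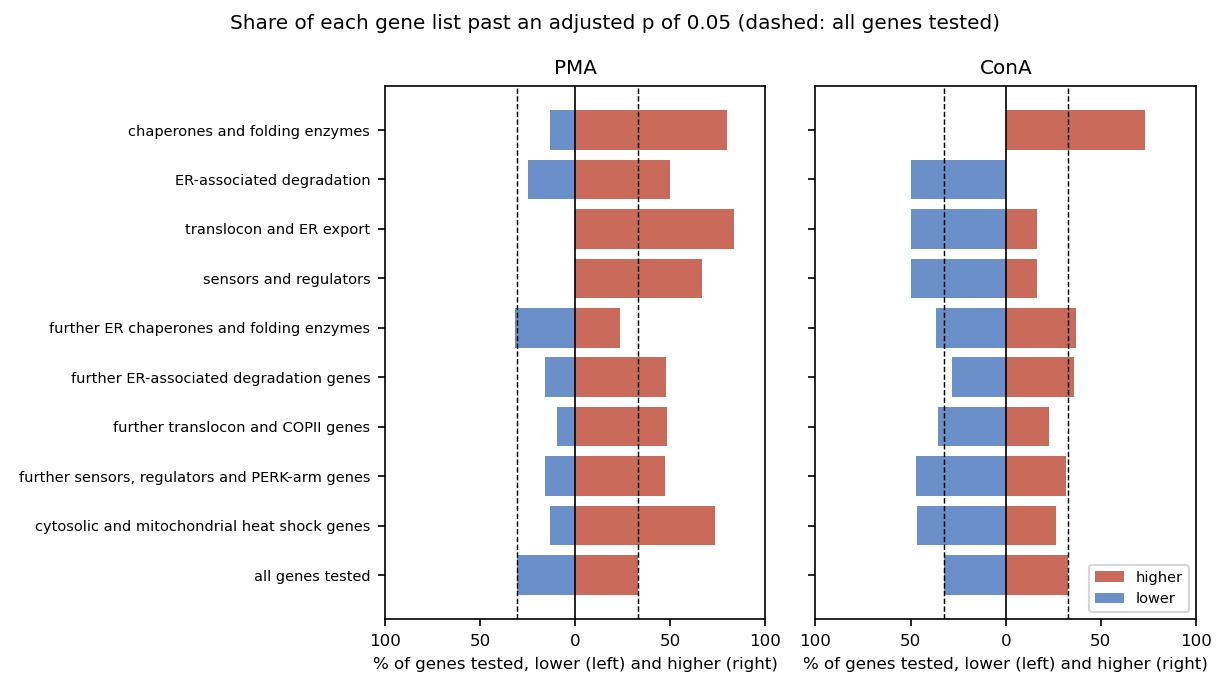
Bars give the percent of tested genes of each list that rose (red, to the right) or fell (blue, to the left) at an adjusted p of at most 0.05 with PMA (left panel) and ConA (right panel), with dashed lines at the share of all genes tested. With ConA the 15 chaperones have 11 higher and none lower, while the 38 further chaperones have 14 of each.

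The estimated depth was 33633923 to 45578641 reads per library. Of 6 mesenchymal markers of a fibrosarcoma line, VIM, FN1, CD44, MMP14 and TIMP2 had normalized counts of at least 10999.8 in every library, and S100A4 was at 69.2 to 215. The 6 summed to 588317 to 616462 with PMA against 522934 to 544304 in its controls and 440323 to 472951 with ConA against 604869 to 682732. With PMA the libraries lay above all controls for VIM, CD44 and MMP14 and below them for FN1, TIMP2 and S100A4, and with ConA they lay below all controls for each of the 6. Epithelial markers summed to 170 to 325. In the PMA experiment all 6 T and NK cell markers were listed, summing to 714 to 783 in the controls and 1076 to 1492 with PMA, while only CD3D of that list was listed in the ConA experiment (21.6 to 31.0). B and plasma cell markers summed to at most 15.3, the 4 erythroid markers were not listed, and monocyte markers summed to 300 to 460. The part of these transcripts in the results was not tested.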

How the data were processed

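Gene expression was measured by polyA RNA sequencing in 12 libraries of HT1080 cells, 3 in each of the groups PMA, PMA control, ConA and ConA control, grouped by the labels. The deposited values are a signal per gene symbol: normalized counts, which are read counts estimated where reads are shared and divided by the authors by one factor per library within each experiment. The submitters' processing notes name Partek, Bowtie2, STAR and DESeq2 and the builds hg19 and mm10, with no role given; the step each served is not given in the sources used here. Of values between 5 and 60, 80.9% to 83.2% became whole (within 0.03) under the best factor of each library, so whole reads were not recovered and no count test was run. Squared differences between replicate libraries were 3.52 to 16.5 times the counting variance, so precision rests on the spread of 3 libraries, and an exact permutation test of 3 against 3 cannot go below p = 0.10.

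Each treatment was compared with its own controls with limma 3.58.1 in R 4.3.3 on log2(value + 1), with variances shrunk toward a trend in mean level, for genes with a mean of at least 10, with Benjamini-Hochberg adjustment over all genes tested. A fold change is thus on the log2(value + 1) scale. The difference between treatments was fitted with 4 group means over the genes listed in both experiments. The steps were tested on simulated data. Role medians are descriptions without a test. The 35 genes, the wider lists and the markers were chosen with earlier results of these data known. All 35 genes are named, with the value of every library for those that met the strict call and for the 2 genes of each role with the largest change per treatment; of each wider list the 3 genes with the largest change per treatment at an adjusted p of at most 0.05 are named. PDIA2 and DERL3 of the wider lists were not listed. Alternatives were the pseudocount, the minimum mean, quantile normalization, median centring, no variance trend, one fit of all libraries, a replicate block, each library left out, and, chosen after seeing the data, each value divided by its library's total over all genes (library-total scaling). Promoters were read from the RefSeq table with Python 3.11.15. Protein retention signals were not analysed here.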

Additional observations from a re-analysis of the deposited data

Results flagged for a closer look

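The PMA and ConA changes of 18 genes differed by the test of the difference itself (limma over 12 libraries, adjusted p from 1.45e-14 to 0.000126), either by at least 1 on the log2 scale or because the gene rose with one treatment and fell with the other. Each value is the log2 change with PMA minus that with ConA, and the cause was not tested for any of them. A difference between the treatments cannot be told apart from one between the experiments. How many of all genes the same rule would flag was not counted.

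Among the 35 ER genes the difference was 1.89 for PPP1R15A, 1.24 for HERPUD1 and 1.10 for SSR3. The genes that moved in opposite directions had differences of 0.62 for EDEM1, 0.59 for SEC61B, 0.54 for SPCS3, 0.47 for SEC61A1 and 0.45 for XBP1, and of -0.93 for CALR and -0.49 for CRELD2. The opposite directions of EDEM1, SPCS3, CALR and PPP1R15A rest on a smaller change that 1 library could end, as given in the report. Those of EDEM1, SEC61A1, SPCS3, XBP1 and PPP1R15A were also not called under all 4 scalings: the rise of SEC61A1 with PMA was 0.046 after quantile normalization and 0.020 with library-total scaling, and that of XBP1 0.050 and 0.087. Their differences were 0.26 and 0.28 for SEC61A1 and 0.30 and 0.26 for XBP1. SSR3 was below 1 with those scalings (0.82 and 0.91).

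On the list of further sensors, regulators and PERK-arm genes the difference was 1.71 for CHAC1, 1.51 for TRIB3, 1.10 for ASNS and 1.06 for DDIT3, and -1.14 for ATF3. PERK activity itself was not measured. For the heat shock genes it was 1.32 for HSPA1A, which rose with both treatments, and 1.03 for HSPH1. The prolyl isomerase gene FKBP7 had a difference of -1.01. After quantile normalization and with library-total scaling, DDIT3 (0.998 and 0.862), ASNS (0.981 and 0.903) and HSPH1 (0.866 and 0.835) fell below 1, and FKBP7 was at -0.77 after quantile normalization and -0.96 after median centring.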

How the results depend on the processing

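The strict calls with PMA were the same 2 genes and with ConA 0 under every alternative run. For the difference the count was 3 throughout, but quantile normalization and library-total scaling replaced SSR3 (higher, 0.82 and 0.91) by CALR (lower, -1.25 and -1.11). Pseudocounts of 0.1 and 10, no minimum mean and a minimum mean of 50 changed no call among the 35 genes. Scaling moved most. With PMA, where 25 genes rose and 4 fell, quantile normalization gave 9 and 10 and library-total scaling (chosen after seeing the data) 9 and 9. Of all genes 4403 rose and 4846 fell with PMA after quantile normalization, and 3478 and 6316 with library-total scaling. The median log2 changes with PMA became 0.0014 and 0.051 for chaperones, -0.046 and -0.037 for degradation genes, 0.21 and 0.22 for the translocon and 0.049 and 0.075 for sensors, in the same order. After quantile normalization PDIA3 (-0.043), PDIA6 (-0.050), DNAJB9 (-0.0042), HYOU1 (-0.12) and SSR1 (-0.090) turned with PMA. With ConA the medians under quantile normalization were 0.51 for chaperones and -0.26 for degradation genes. Median centring gave 0.28, -0.28, -0.14 and -0.18 for chaperones, degradation, translocon and sensors, and library-total scaling 0.41, -0.15, -0.0076 and -0.054.

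Leaving out each library in turn gave 2 to 5 genes lower with PMA, a translocon median of 0.31 to 0.35 with PMA, and medians of 0.32 to 0.36 for chaperones and -0.24 to -0.19 for degradation genes with ConA. Without a variance trend 2 calls with PMA and 3 with ConA were lost among the 35, and strict calls over all genes fell to 867 with PMA from 1310 and to 662 with ConA from 1318. One fit of all 12 libraries lost the call of SEL1L with PMA and added EDEM2, SEC24D and ATF6 with ConA. The replicate block could be fitted for PMA alone, since ConA controls carry other numbers. Deviations of same-numbered libraries correlated by -0.064, 0.096 and 0.096, so the numbers are not taken to pair them. With the block 25 genes rose and 4 fell, the strict calls were 2 among the 35 and 1264 over all genes, and no call among the 35 changed. Depth limited none of the 35, whose group means were at least 934, but 3 libraries a group limit small changes.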
